A study of Mus musculus with 6 samples.

Results

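The Rab family of small GTPases is described here in hippocampal microglia with few and with many lipid droplets. Its members were all rows of the deposited table whose symbol was Rab followed by a number, with at most 1 letter and 1 further digit, which gave 53 of 14148 genes. Rab effectors and Rab-interacting proteins did not match that pattern and are described separately. The pattern used names only and no measured value.

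The Rab proteins are small GTPases that switch between a GDP-bound form held in the cytosol and a GTP-bound form that sits on a membrane and recruits effectors. Each Rab marks particular membranes, so that the family as a whole orders budding, transport, tethering and fusion of vesicles along the endocytic and secretory pathways. In microglia, the resident macrophages of the brain, these steps carry engulfed material from the phagosome and early endosome to the lysosome, return receptors to the surface and release cytokines, and some Rabs are also found on lipid droplets.

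RNA came from hippocampal microglia of male C57BL/6 mice aged 18 months, sorted as live CD11b-positive cells with low CD45. All libraries share that gate, and no transgene or treatment is given in the labels. BODIPY, a dye of neutral lipid, split the cells into a dim fraction with few lipid droplets, here called LD-low, and a bright one with many, here called LD-high. Each group has 3 libraries, each from about 10000 cells of 3 pooled mice. The comparison asks how transcripts differ between microglia with few and with many lipid droplets, and the labels leave unsaid whether the pools of mice were separate, so the p-values cover the spread among these 6 libraries, which may be technical.

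The libraries held 15895576 to 38489448 reads in genes. The microglial genes P2ry12, Tmem119, Csf1r and Sall1 lay between 26486 and 546840 normalized counts in every library, and 0 of 12 microglial markers passed the test (limma, with 2 of 12 at an unadjusted p under 0.05, 0 called by edgeR and 1 by DESeq2). Those 2 were Cx3cr1 (-20.0% on the means, groups overlapping) and Aif1 (12.7%, higher without overlap), with limma adjusted p = 0.115 and 0.133. Of 11624 genes tested, 178 rose and 212 fell in LD-high libraries, and these counts were 118 and 233 with equal totals, 426 and 191 after a correction for transcript length and 408 and 193 after one for GC content. Markers of other cells differed between the fractions: 7 of the 8 neutrophil genes in the table, among them Ngp with 435 to 1793 normalized counts in LD-low libraries, had 0 reads in every LD-high library. The 8 together summed to 22281 to 24798 and 19832 to 20401, most of it Csf3r. The 12 choroid plexus markers summed to 383 to 1863 in the LD-low and 1742 to 5749 in the LD-high libraries, with 3 of 9 tested ones higher and Cldn2 at 0 in 1 library of each group. The 7 oligodendrocyte markers in the table summed to 4641 to 4896 and 5458 to 6013, most of it Cnp, Mbp and Mag, while Opalin was at 0 in 4 libraries. The border-associated macrophage markers summed to 254 to 557 and 167 to 416, the astrocyte markers, mostly Slc1a3, to 6500 to 7854 and 7999 to 8878, the endothelial ones to 1091 to 1502 and 1314 to 1686, and the neuronal ones to 10.5 to 28.1 and 25.04 to 32.0, with 0 calls by limma in these 4 lists (5 genes at an unadjusted p under 0.05, and 1 endothelial gene called by edgeR and 1 by DESeq2). Over all tested genes, 19.8% had an unadjusted p under 0.05. Pecam1 made up most of the endothelial sums. Of the tested astrocyte, endothelial and oligodendrocyte markers, 2, 3 and 4 changes lay above 0 and 1 in each list below. Mag (mean 676 and 867), Cnp (2909 and 3483), Slc1a3 (7183 and 8463) and Cdh5 (21.7 and 37.0) were higher in LD-high libraries without overlap. So were 12.7% of all tested genes, and 11.7% were lower. Flt1 (21.8 and 2.86) was lower without overlap. Gfap (14.4 and 5.27), Mog (9.13 and 2.72) and Aqp4 (3.30 and 0), all under the filter and untested, were too. No oligodendrocyte marker passed in limma (3 of 5 at an unadjusted p under 0.05, 0 called by edgeR, 2 by DESeq2). Whether RNA of these cells had a part in the Rab results was not tested.

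At the test used, limma with Benjamini-Hochberg adjustment over all genes and a threshold of 0.05, 5 Rab genes passed: Rab5b and Rab31 of early endosomes, Rab7 of late endosomes and Rab8b of exocytic vesicles rose, and Rab24, a Rab linked to autophagy, fell. Of all genes tested, 1.53% rose and 1.82% fell. Their promoters are shown because these are the 5 genes the results turn on. Of the 53 members, 45 had an entry in RefSeq's promoter table (GRCm38.p6). The 250 bases upstream of the start the table gives for each called gene are given 5' to 3' on the strand of the gene, and each matched NCBIM37 (mm9), the build of the reads, at exactly 1 place, directly next to the annotated gene. Capitals mark a GC box (GGGCGG or its reverse CCGCCC), an E-box (CACGTG, its own reverse) or an ETS core (GGAAGT or ACTTCC). The windows lie on the minus strand, at chr10:128133325-128133574 for Rab5b, chr17:66122093-66122342 for Rab31, chr6:87995265-87995514 for Rab7, chr13:55423342-55423591 for Rab24 and chr9:66767513-66767762 for Rab8b.
Rab5b: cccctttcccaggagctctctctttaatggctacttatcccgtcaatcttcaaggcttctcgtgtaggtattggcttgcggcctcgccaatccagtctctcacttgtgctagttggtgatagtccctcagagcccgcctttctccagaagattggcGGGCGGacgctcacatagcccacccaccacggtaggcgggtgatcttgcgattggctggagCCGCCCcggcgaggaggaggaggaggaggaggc
Rab31: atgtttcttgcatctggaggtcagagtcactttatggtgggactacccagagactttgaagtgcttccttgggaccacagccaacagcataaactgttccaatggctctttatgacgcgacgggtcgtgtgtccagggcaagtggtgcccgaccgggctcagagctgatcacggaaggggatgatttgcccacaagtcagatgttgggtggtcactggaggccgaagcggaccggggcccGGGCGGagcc
Rab7: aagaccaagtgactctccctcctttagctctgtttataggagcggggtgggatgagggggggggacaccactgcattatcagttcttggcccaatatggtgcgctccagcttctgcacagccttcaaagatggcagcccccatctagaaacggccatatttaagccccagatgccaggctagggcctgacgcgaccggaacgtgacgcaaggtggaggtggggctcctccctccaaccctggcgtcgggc
Rab24: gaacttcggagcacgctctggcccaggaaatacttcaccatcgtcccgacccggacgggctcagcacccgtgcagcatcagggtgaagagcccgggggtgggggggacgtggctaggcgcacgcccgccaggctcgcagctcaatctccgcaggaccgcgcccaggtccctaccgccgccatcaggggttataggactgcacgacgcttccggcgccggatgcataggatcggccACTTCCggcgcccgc
Rab8b: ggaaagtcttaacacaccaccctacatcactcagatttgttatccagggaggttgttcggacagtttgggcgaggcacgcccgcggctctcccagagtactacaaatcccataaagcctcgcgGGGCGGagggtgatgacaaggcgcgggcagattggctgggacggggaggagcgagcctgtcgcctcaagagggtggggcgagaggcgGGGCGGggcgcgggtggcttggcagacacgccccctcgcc

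The windows of Rab5b and Rab8b each held 2 GC boxes, that of Rab31 held 1, and those of Rab7 and Rab24 held none. Rab24 was the one of the 5 with an ETS core, 15 bases before its start. No E-box was present in these 5 windows. Among the 45 Rab promoters, 31 (68.9%) held a GC box, 4 (8.89%) an E-box and 8 (17.8%) an ETS core. The shares over all 27025 promoters of the table were 32.96%, 6.04% and 19.9%, and over the 8856 promoters of genes tested here they were 60.0%, 8.66% and 24.4%. A match of letters is a description of the window and not a binding site.

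Levels differed widely among the members. Scaled by exonic length, the most abundant transcripts were Rab2a, which acts between the endoplasmic reticulum and Golgi, Rab14, which acts between the Golgi and endosomes, Rab31, Rab8b and Rab1b, another Rab of endoplasmic reticulum to Golgi traffic. Rab2a had 2490 normalized counts per kb in the LD-low and 2899 in the LD-high libraries, Rab14 had 2343 and 2640, and Rab31 had 2125 and 2582. Rab8b had 2038 and 2437 per kb and Rab1b had 1956 and 2211. Within each group the order of these neighbours rests on small steps and on the annotated length, so it is no firm ranking. The lysosomal Rab7 stood eighth, after Rab1 and Rab10, with 1483 and 1901 per kb, and the fifteenth, Rab5b, had 695 and 937. On the same scale the lowest tested members were Rab23 (21.6 and 20.6), a Rab of ciliary Hedgehog signalling, and Rab36 (4.02 and 1.43). All Rab reads together made up 0.382% to 0.394% of the reads in the LD-low and 0.418% to 0.435% in the LD-high libraries.

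**Figure D1:**
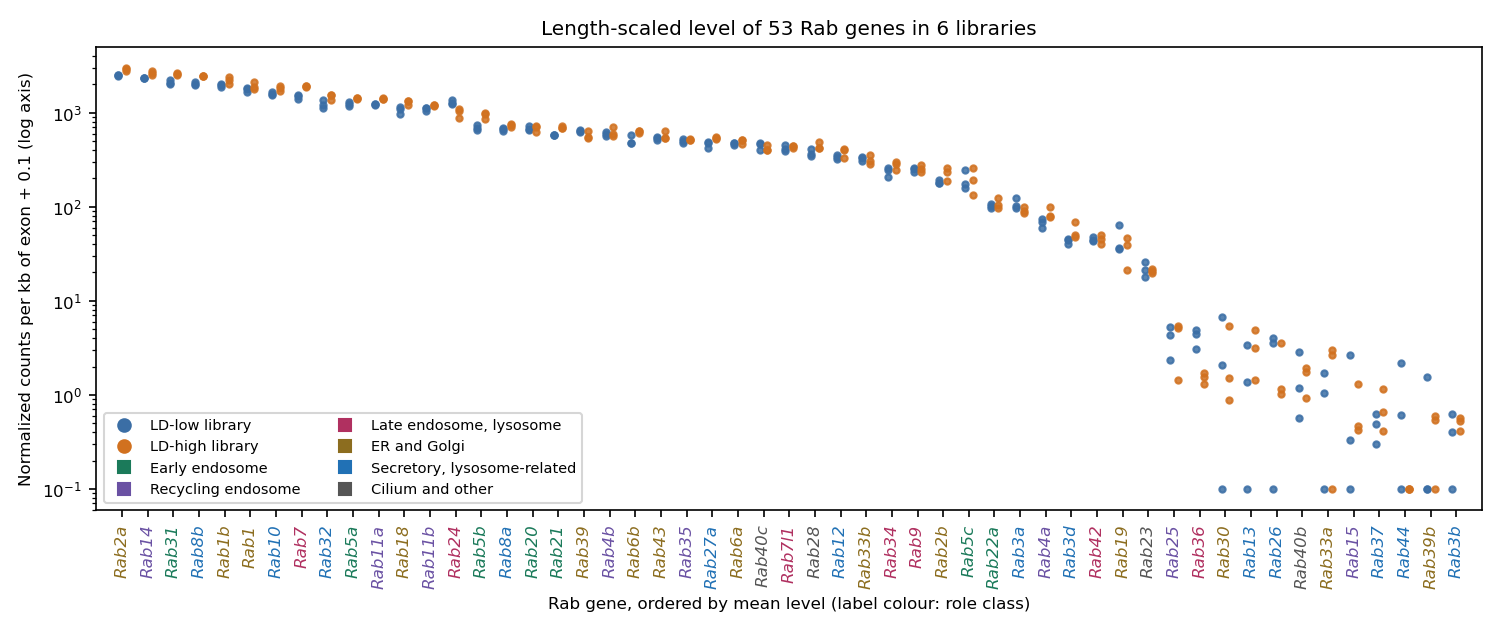
Normalized counts per kb of exon, plus 0.1, on a log axis for the 53 Rab genes ordered by their mean over 6 libraries; each point is 1 library, blue for LD-low and orange for LD-high, the label colour gives the role class, and 0 reads are drawn at 0.1. Levels run from 2490 (Rab2a) down to 0.278 (Rab3b) per kb in the LD-low group, with a drop after Rab23.

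Below the filter of at least 10 normalized counts in at least 3 libraries lay 11 members, which were not tested: Rab3b, Rab13, Rab15, Rab25, Rab26, Rab30, Rab33a, Rab37, Rab39b, Rab40b and Rab44. The highest value among these in any library was 13.9 normalized counts, and their totals over the 6 libraries ran from 7 reads (Rab3b) to 38 (Rab25). Rab25 and Rab3b are known from epithelia and from neurons and endocrine cells. Rab44, a large Rab of immune cells, had 3, 8 and 0 reads in LD-low replicates 1, 2 and 3 and 0 in each LD-high library, where a count of 0 allows 2.23 to 5.01 normalized counts. With LD-low replicate 3 also at 0, no difference was detectable at this depth. The 42 members that passed the filter had 33.9 to 14337 normalized counts as a group mean, apart from Rab36.

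Among these 42, 4 rose and 1 fell, beside 1.53% and 1.82% of all genes tested. The log2 changes had a median of 0.16 against -0.01 over all genes tested, and 32 of 42 lay above 0, where 48.7% of all tested genes did. All 3 LD-high libraries lay above all 3 LD-low libraries for 19 of 42 members, against 12.7% of all tested genes, and below them for 2, against 11.7%. Rab36, 1 of those 2, entered the test through its LD-low values. All tested genes passed the same filter on level, but the shares over all genes were not matched to the level of the members. The genes of a family can also vary together across libraries, so these counts describe the family and are no test of it. The members' median deviation from the gene means was -0.09 to -0.06 on the log2 scale in LD-low libraries and 0.06 to 0.08 in LD-high libraries. The summed choroid plexus markers were 966, 383 and 1863 in LD-low replicates 1 to 3, where the Rab deviations were -0.08, -0.06 and -0.09, and 5749, 1742 and 5642 in the LD-high replicates, where they were 0.07, 0.06 and 0.08. Those choroid plexus sums overlapped between the groups. The oligodendrocyte sums (4641 to 4896 and 5458 to 6013) and astrocyte sums (6500 to 7854 and 7999 to 8878) were higher in every LD-high library. The neutrophil sums were lower in every LD-high library, and the sums of the remaining lists overlapped. Whether any of these sums bears on the Rab deviations was not tested. An unadjusted p under 0.05 was reached by 20 of 42 members in limma, against 19.8% of all tested genes.

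**Figure D2:**
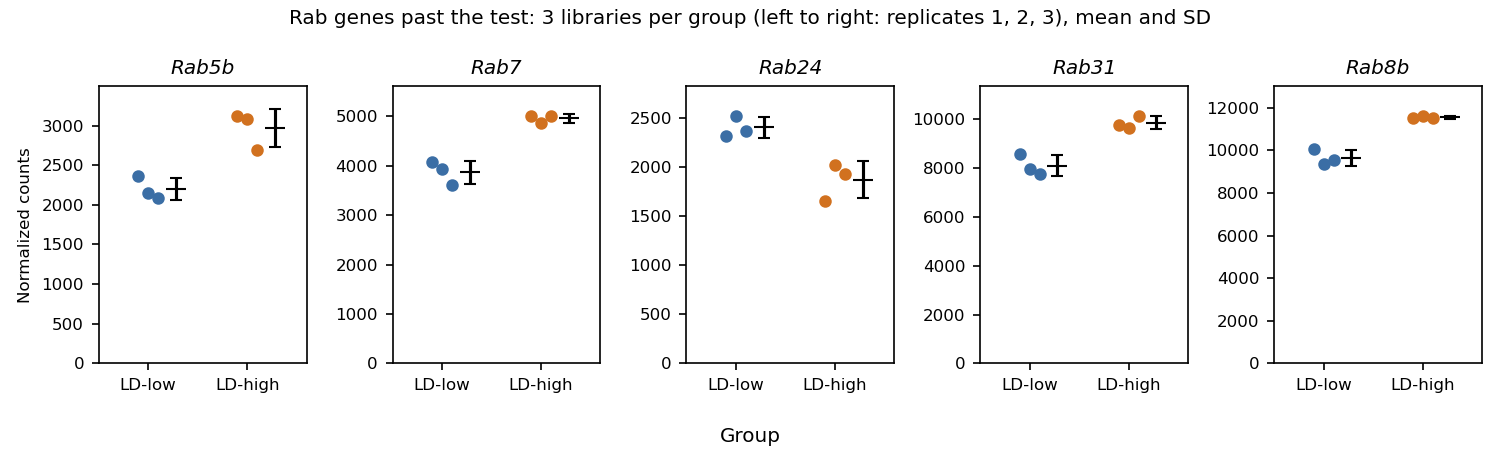
Normalized counts (linear axis from 0) of the 5 Rab genes that passed the test; points are libraries, with replicates 1, 2 and 3 from left to right, and the bar beside them is the mean with its SD (n = 3 per group). The groups do not overlap for any of the 5, and Rab24 is the one that is lower in LD-high libraries.

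Among the Rabs of early endosomes and endocytosis, 2 of 7 tested members rose, Rab5b and Rab31, and 5 did not pass, beside 1.53% of all tested genes that rose. Rab5b, a Rab5 isoform that drives fusion of early endosomes (chromosome 10, 128114249 to 128133324, mm9), had 2359, 2155 and 2090 normalized counts in LD-low replicates 1 to 3 and 3124, 3085 and 2693 in the LD-high replicates. Every LD-high library was above every LD-low library, LD-high replicate 3 being the lowest of its group. This was a rise of 34.8% on the means, a log2 change of 0.43 ± 0.08 (SE, limma adjusted p = 0.0145). Rab5b and Rab7 were pointed out by the published study of these samples, so their direction is no independent evidence. Rab31, which moves cargo between the trans-Golgi and endosomes (chromosome 17, 66001066 to 66122092), had 8575, 7955 and 7773 normalized counts in the LD-low and 9762, 9634 and 10140 in the LD-high libraries. The groups were apart by more than either spread, with a log2 change of 0.28 ± 0.07 (limma adjusted p = 0.0313). In bulk libraries a change in the share of cells that hold a transcript and a change in RNA per cell cannot be told apart, for these genes and all that follow.

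The other Rab5 isoforms did not pass at the test used. Rab5a did after the transcript length correction and with the replicate number as a block (limma adjusted p = 0.0454 and 0.0482). Rab5a had 2911, 3050 and 2748 normalized counts in the LD-low and 3346, 3327 and 3358 in the LD-high libraries, without overlap, a log2 change of 0.21 with a 95% interval of 0.06 to 0.35 (limma adjusted p = 0.115). Rab5c varied more than the other isoforms, with 378, 346 and 535 in the LD-low and 295, 562 and 421 in the LD-high libraries. Its groups overlapped and its change of -0.0022 had an interval of -0.44 to 0.43. The sign of that change turned under other scalings, with 0.04 under quantile normalization. Of the length-scaled Rab5 level, Rab5b made up 32.8% ± 1.6 in the LD-low and 36.7% ± 2.2 in the LD-high libraries (SD, n = 3 each, exact permutation p = 0.2, 2-sided, where 0.1 is the smallest the design allows). Rab21, which takes part in integrin endocytosis, had 1049, 1063 and 1048 against 1252, 1301 and 1239 normalized counts, without overlap. Its log2 change of 0.26 ± 0.08 missed the threshold (limma adjusted p = 0.0851). Rab21 passed after the length correction and with the block (limma adjusted p = 0.0335 and 0.0430). Rab22a, the close relative of Rab31, had a change of 0.09 with an interval of -0.13 to 0.32. For Rab20, a Rab of phagosome maturation, the change was -0.0018 (-0.20 to 0.19), a sign that also turned under quantile normalization. Annotated genes on the opposite strand overlap 212 of the 2357 exonic bases of Rab5a and 311 of the 1446 of Rab20. Such reads cannot be assigned to a strand here.

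The 7 tested Rabs of late endosomes, lysosomes and autophagosomes held 1 rise, 1 fall and 5 members that did not pass, beside 1.53% and 1.82% of all tested genes. Rab7, which governs fusion of late endosomes, phagosomes and autophagosomes with lysosomes (chromosome 6, 87949100 to 87995264), had 4071, 3931 and 3612 normalized counts in the LD-low and 5015, 4861 and 5007 in the LD-high libraries. The LD-high libraries were close to each other and all above the LD-low range. The rise was 28.1% on the means, or 0.36 ± 0.07 on the log2 scale (limma adjusted p = 0.0153). An annotated gene on the opposite strand overlaps 204 of the 2610 exonic bases of Rab7, and such reads cannot be assigned to a strand here.

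Rab24, an atypical Rab with low GTPase activity that is found on autophagic compartments (chromosome 13, 55420584 to 55423341), went the other way. It had 2318, 2519 and 2364 normalized counts in the LD-low and 1655, 2017 and 1928 in the LD-high libraries. LD-high replicate 1 was the lowest, and the groups did not overlap. On the log2 scale Rab24 fell by 0.37, with a 95% interval of -0.55 to -0.19 (limma adjusted p = 0.0312). Rab36, which like its relative Rab34 binds Rilp, an effector that positions lysosomes, was low throughout, with 26.7, 29.2 and 18.6 against 7.45, 8.96 and 10.02 normalized counts. Its groups did not overlap, but it entered the test only through its LD-low values, and its change of -1.38 (-2.44 to -0.32) did not pass (limma adjusted p = 0.141). Rab34 had a change of 0.23 (-0.02 to 0.47). Rab9, which returns receptors from late endosomes to the Golgi, had one of 0.04 (-0.22 to 0.29), and Rab7l1, also called Rab29 and known as a partner of Lrrk2, one of 0.05 (-0.17 to 0.28). Rab42 had 30.5 to 38.4 normalized counts in all libraries and an interval of -0.68 to 0.73.

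**Figure D3:**
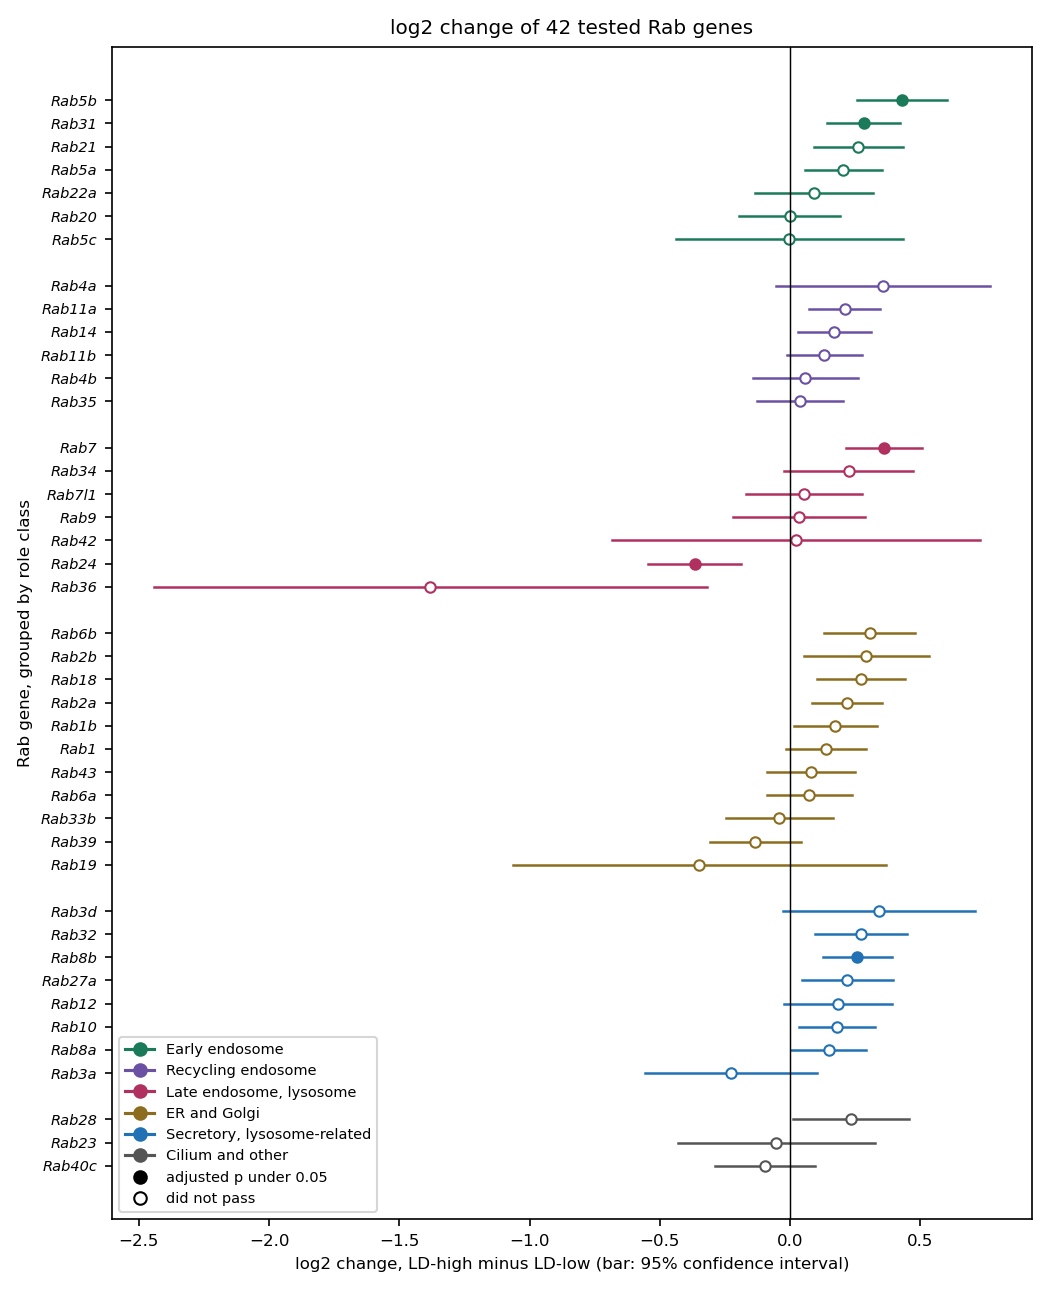
log2 change (LD-high minus LD-low) of the 42 tested Rab genes by role class, with bars for the 95% confidence interval and filled circles for an adjusted p under 0.05. Of the 42 circles, 32 lie above 0, up to 0.43, and Rab24 is the filled circle to the left of 0.

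No recycling endosome Rab passed at the test used, and 2 of the 6 tested had an unadjusted p under 0.05, as did 19.8% of all tested genes (0 called by edgeR, 1 by DESeq2). All 6 changes lay above 0, with a median of 0.15, and 4 had groups without overlap, where 48.7% of all tested genes lay above 0 and 12.7% were higher without overlap. Rab11a, the main Rab of the recycling endosome, had 3611, 3662 and 3727 normalized counts in the LD-low and 4308, 4202 and 4214 in the LD-high libraries. The 2 groups were tight and apart, with a log2 change of 0.21 ± 0.06 (limma adjusted p = 0.0851). Rab11a passed after the length correction, after the GC correction and with the replicate number as a block (limma adjusted p = 0.0343, 0.0385 and 0.0318). Its paralog Rab11b had 2966, 2980 and 2769 against 3223, 3168 and 3149, again without overlap but with a smaller change of 0.13 (-0.01 to 0.28). Rab14 had 12701, 12821 and 12656 against 13603, 15174 and 14234 (0.17, 0.03 to 0.31, limma adjusted p = 0.163), and passed with the block (limma adjusted p = 0.0498). The fast-recycling Rab4a, at 103 to 130 in the LD-low and 138 to 175 in the LD-high libraries, had an interval of -0.05 to 0.77, and Rab4b, of whose 1970 exonic bases 1368 overlap other annotated genes, one of -0.14 to 0.26. Rab35, which recycles cargo to the plasma membrane, had a change of 0.04 (-0.13 to 0.20).

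The endoplasmic reticulum and Golgi class had 0 of 11 tested members past the test used, with 5 at an unadjusted p under 0.05, beside 19.8% of all tested genes, 0 called by edgeR and 3 by DESeq2. Limma called 3 after the length correction, 3 after the GC correction and 3 with the block. Over all 11624 genes tested, these fits called 617, 601 and 1090. Rab6b, a Golgi Rab, had 2273, 2247 and 2709 normalized counts in the LD-low and 2847, 3009 and 3057 in the LD-high libraries. The groups did not overlap, although LD-low replicate 3 came near the LD-high range, and the change of 0.31 ± 0.08 had an adjusted p of 0.0543 in limma. Rab6a, by contrast, had a change of 0.07 (-0.09 to 0.24), and the share of Rab6b in the length-scaled Rab6 level was 51.9% ± 2.4 in the LD-low and 55.9% ± 0.5 in the LD-high libraries (SD, n = 3 each, exact permutation p = 0.1, the smallest the design allows). Mrpl48 on the opposite strand overlaps 708 of the 3728 exonic bases of Rab6a, and such reads cannot be assigned to a strand here. Rab2a had 5393, 5306 and 5232 against 5981, 6206 and 6361 (0.22 ± 0.06, limma adjusted p = 0.0701), again without overlap. Rab18, which is found on lipid droplets and at their contacts with the endoplasmic reticulum, had 2555, 2269 and 2702 in the LD-low and 3113, 3095 and 2868 in the LD-high libraries. These did not overlap either, and the change of 0.27 ± 0.08 did not pass (limma adjusted p = 0.0720). The changes of Rab1 and Rab1b, which carry vesicles from the endoplasmic reticulum to the Golgi, were 0.14 (-0.01 to 0.29) and 0.17 (0.01 to 0.33), with overlapping groups. Rab2b, the less abundant paralog of Rab2a, had 736, 809 and 751 against 784, 1065 and 985, where LD-high replicate 1 lay within the LD-low range (0.29, 0.05 to 0.53, limma adjusted p = 0.168). Rab43, a Golgi Rab, had a change of 0.08 (-0.09 to 0.25). Rab39, Rab33b and Rab19 lay below 0, at -0.13 (-0.31 to 0.04), -0.04 (-0.24 to 0.16) and -0.35 (-1.06 to 0.37).

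In the class of secretory vesicles, exocytosis and lysosome-related organelles, 1 of 8 tested members rose and 7 did not pass, beside 1.53% of all tested genes that rose. An unadjusted p under 0.05 was reached by 5 of the 8, beside 19.8% of all tested genes. From this class edgeR called 1 and DESeq2 2, beside 377 and 729 of all 11624 genes tested. Rab8b, which carries vesicles from the Golgi and recycling endosomes to the cell surface (chromosome 9, 66691479 to 66767512), had 10089, 9369 and 9547 normalized counts in the LD-low and 11507, 11633 and 11529 in the LD-high libraries. The LD-high libraries differed from each other by little and all lay above the LD-low range, a log2 change of 0.26 ± 0.06 (limma adjusted p = 0.0372). Its paralog Rab8a had 3122, 3228 and 2996 against 3492, 3331 and 3533, without overlap, and a change of 0.15 (0.00 to 0.29) that did not pass. Rab32, which serves lysosome-related organelles and mitochondria, had 2851, 2573 and 2364 against 3283, 3241 and 2872, where LD-high replicate 3 was only just above LD-low replicate 1 (0.27 ± 0.08, limma adjusted p = 0.0863). Rab32 passed after the length correction, after the GC correction and with the block (limma adjusted p = 0.0395, 0.0483 and 0.0127), and in DESeq2 (adjusted p = 0.0484). Rab27a, which docks secretory lysosomes and exosome-bearing endosomes at the plasma membrane, had 1440, 1425 and 1260 against 1594, 1644 and 1558 (0.22 ± 0.08, limma adjusted p = 0.155). Rab10, which moves vesicles to the plasma membrane, had no overlap and a change of 0.18 (0.03 to 0.32), and Rab12 overlapped, with 0.18 (-0.02 to 0.39). The Rab3 isoforms, known for regulated exocytosis, differed in sign: Rab3d had a change of 0.34 (-0.03 to 0.71) and Rab3a one of -0.23 (-0.56 to 0.11), neither past the test. The share of Rab3d in their length-scaled sum was 28.9% ± 4.0 in the LD-low and 37.6% ± 3.1 in the LD-high libraries (SD, n = 3 each, exact permutation p = 0.1).

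**Figure D4:**
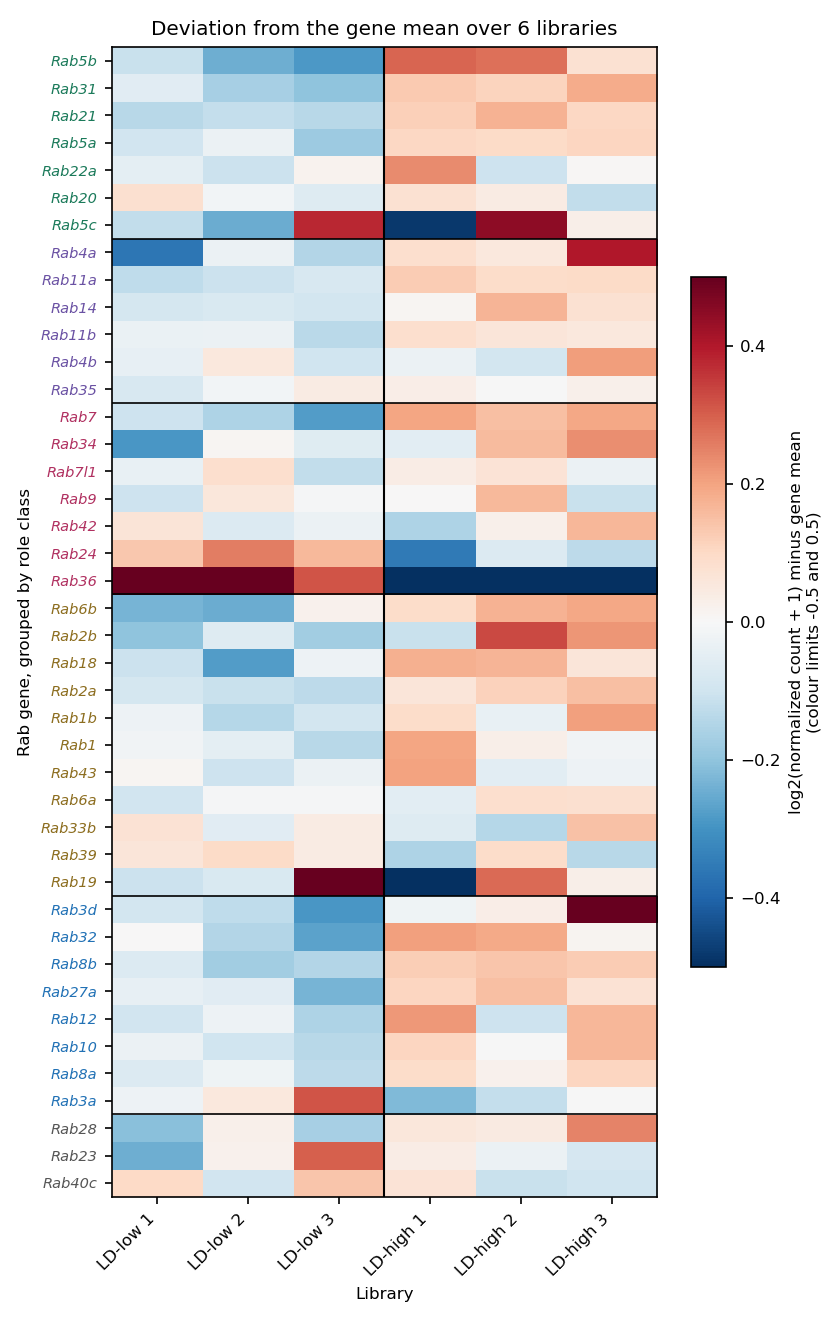
Deviation of each of the 42 tested Rab genes from its own mean over 6 libraries, in log2(normalized count + 1), with libraries in columns and genes grouped by role class; red is above and blue below the mean, and values beyond the colour limits of -0.5 and 0.5 take the end colours. In 19 rows all LD-high libraries are above all LD-low libraries, Rab24 and Rab36 are the reverse, and Rab5c and Rab19 vary within groups.

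The 3 remaining tested members are Rab28 and Rab23, which act at the cilium, and Rab40c, part of a ubiquitin ligase. None of them passed in limma (1 with an unadjusted p under 0.05, beside 19.8% of all tested genes, 0 called by edgeR or DESeq2). Rab28 had 619, 729 and 639 against 745, 739 and 852 normalized counts (0.23, 0.01 to 0.46), the groups being apart by a small step. Rab23 and Rab40c had intervals of -0.43 to 0.33 and -0.29 to 0.10.

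Paralog shares were computed in 9 families from length-scaled levels. The exact permutation p was at its smallest possible value of 0.1 for Rab3, Rab4, Rab6 and Rab8, and no family can pass 0.05 in this design, before or after adjustment. Rab8b made up 75.4% ± 1.1 of the Rab8 level in the LD-low and 76.8% ± 0.7 in the LD-high libraries, a difference of 1.39 percentage points, and Rab4a 10.1% ± 0.9 and 12.2% ± 0.3 of the Rab4 level (SD, n = 3 each, exact permutation p = 0.1 for both). Rab11a and Rab11b, at 52.7% and 47.3% in LD-low libraries, shifted by 1.36 points (exact permutation p = 0.4), and Rab1 and Rab1b by 0.60 points (p = 0.9).

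A list of 11 Rabs known from lipid droplets (Rab1, Rab1b, Rab5a, Rab5b, Rab5c, Rab7, Rab8a, Rab10, Rab18, Rab32 and Rab40c) crosses these classes. Rab5b and Rab7 rose, 9 did not pass, 9 of 11 changes lay above 0, and the median was 0.18. In 7 of them all LD-high libraries were above all LD-low libraries. Over all tested genes 1.53% rose, 48.7% lay above 0, 12.7% were higher without overlap, and the median was -0.01. Of the 11, 8 had an unadjusted p under 0.05 in limma, beside 19.8% of all tested genes. From this list edgeR called 2 and DESeq2 4. Limma called 5 after the length correction, 4 after the GC correction and 5 with the block. Over all 11624 genes tested, these 5 fits called 377, 729, 617, 601 and 1090.

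The calls on single Rabs depended on which libraries were used. The number of Rab genes that rose was 5 without LD-low replicate 1, and leaving out LD-low replicate 2 or 3 gave 0 or 1. Leaving out LD-high replicate 1, 2 or 3 gave 3, 2 or 1. Over all genes the number that rose moved too, from 178 to 209 without LD-low replicate 1. It was 20 or 17 without LD-low replicate 2 or 3, and 72, 68 or 28 without LD-high replicate 1, 2 or 3. Rab5b kept its call except without LD-low replicate 2 or 3 (limma adjusted p = 0.0671 and 0.0719), and Rab7 except without LD-low replicate 2 or 3 or LD-high replicate 3 (0.0600, 0.0725 and 0.0608). Rab24 lost it without LD-low replicates 2 and 3 and LD-high replicates 1 and 3 (limma adjusted p = 0.135, 0.104, 0.0872 and 0.0727). For Rab31 and Rab8b it was lost in 5 of 6 such fits, remaining only without LD-low replicate 1, with highest limma adjusted p values of 0.135 and 0.170. The groups did not overlap for any of these 5 genes, so leaving out 1 library could not turn the direction of their changes. With no trend of the variance on the mean none of the 5 passed (limma adjusted p = 0.171 to 0.201), in a fit that called 15 genes in all, and Rab8b also missed the threshold after quantile normalization (0.0640). By count tests on the recovered reads, edgeR called the same 5 Rab genes and DESeq2 called 10, adding Rab2a, Rab6b, Rab11a, Rab18 and Rab32. As background, edgeR called 1.44% of all genes higher and 1.81% lower, and DESeq2 3.23% and 3.04%. After the length correction 11 Rabs rose and 1 fell (3.66% and 1.64% of all genes), and after the GC correction 9 and 1 (3.51% and 1.66%). With the replicate number as a block they were 12 and 1 (4.82% and 4.56%), and with the length correction added 16 and 1 (8.15% and 3.46%).

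The proteins that load, switch and read the Rabs were taken from 4 lists, of which 115 genes were tested. Only 2 passed the test, both effectors and both higher, which is 1.74% against 3.36% of all genes tested, and the median change was 0.02. Rab11fip5, a Rab11 effector in recycling endosomes, had 3240, 3550 and 3217 normalized counts in the LD-low and 4785, 4032 and 4336 in the LD-high libraries. All LD-high libraries were higher, with a log2 change of 0.39 ± 0.08 (limma adjusted p = 0.0172). Ankfy1, also called Rabankyrin-5, a Rab5 effector of early endosomes, had 5223, 4825 and 4645 against 6964, 6164 and 5982, also without overlap (0.38 ± 0.08, limma adjusted p = 0.0179). Ankfy1 lost its call without LD-low replicate 2 or 3 (limma adjusted p = 0.0849 and 0.0907), and Rab11fip5 without LD-low replicate 3 or LD-high replicate 3 (0.0804 and 0.0601). The effector list of 39 tested genes, which also holds the Rab-like GTPase Rabl3, had a median of 0.02.

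Gdi2, a GDP dissociation inhibitor that keeps Rabs soluble, had 14892, 14218 and 14218 normalized counts in the LD-low and 16928, 16920 and 16115 in the LD-high libraries. The groups did not overlap, and the log2 change of 0.21 ± 0.06 did not pass (limma adjusted p = 0.0862). Over all 11624 genes tested, 19.8% had an unadjusted p under 0.05, and limma called 390, edgeR 377 and DESeq2 729. In the list of 8 inhibitors, escort and prenylation genes 0 passed in limma (3 at an unadjusted p under 0.05, 0 by edgeR, 1 by DESeq2), with a median of 0.08. Among 32 exchange factors, which load GTP, 0 passed in limma (6 at an unadjusted p under 0.05, 0 by edgeR, 1 by DESeq2), with a median of 0.01. The smallest p values there belonged to Dennd4c, which activates Rab10 (0.32 ± 0.09, adjusted p = 0.0793 in limma), and Dennd4b (-0.19 ± 0.07, adjusted p = 0.155 in limma). Among 36 GTPase-activating proteins, which switch Rabs off, 0 passed in limma as well (6 at an unadjusted p under 0.05, 0 by edgeR, 1 by DESeq2), with a median of 0.08, and Tbc1d8 and Rabgap1 came first at 0.28 ± 0.08 and 0.21 ± 0.08 (adjusted p = 0.0619 and 0.136 in limma).

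**Figure D5:**
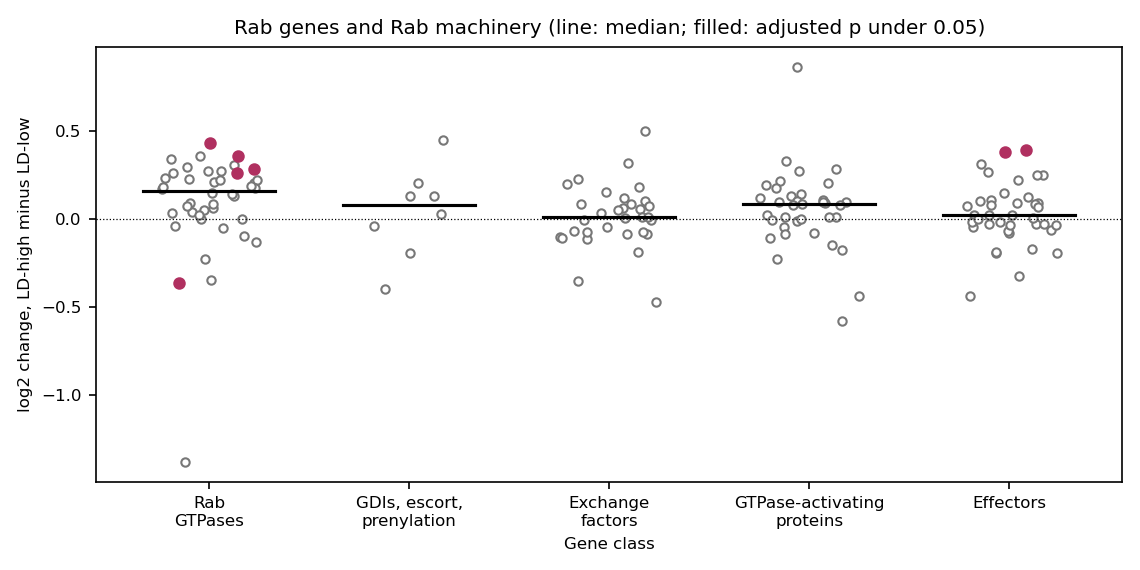
log2 change (LD-high minus LD-low) of each tested gene in the Rab family and in 4 lists of Rab machinery; circles are genes, filled where the adjusted p was under 0.05, and lines are medians. The Rab median of 0.16 lies above the medians of the 4 lists, which run from 0.01 to 0.08, and no test of that difference was made.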

How the data were processed

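RNA was sequenced from 6 libraries, 3 LD-low and 3 LD-high. Libraries were made with a low-input Smart-seq kit and tagmentation, per the labels' protocols. FastQC 0.11.4 served for quality checks and STAR 2.5.1b for mapping to mm9 and counting per gene, per the submitters' processing notes. The gene models and strand setting behind the counts were not given in the sources used here. Values as deposited are a normalized signal, which the authors made by dividing read counts by 1 size factor per library: 100% of values came out as whole reads within 0.01 reads, at size factors of 0.599 to 1.43. Of the 14148 rows, 22 carry a date in place of a symbol and stayed in the fit.

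The test was limma 3.58.1 (R 4.3.3) on log2(normalized count + 1), its variances moderated along a trend on the mean, for genes with at least 10 normalized counts in at least 3 libraries, 2-sided, adjusted by Benjamini-Hochberg over 11624 genes. On that scale the change of low genes is understated. edgeR 4.0.16 and DESeq2 1.42.0 were run on the recovered reads. Lengths and coordinates came from GENCODE vM1 on NCBIM37 (mm9), in which all 53 Rab genes matched, 2 of them by a synonym; 12 overlap exons of another gene. A count of 0 allows 3 reads, a limit for counting error alone, because amplified reads carry no molecular tag. The fit was tested on simulated data.

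The members, role classes and lists were chosen with earlier results of these data known, and the published study had already pointed to Rab5b and Rab7. Named genes were, by rule, those past the threshold, the 3 members of each role class and 2 genes of each machinery list with the smallest p, and 8 Rabs always given; other members are named with their intervals. One gene of the machinery lists that the rule names is not reported here. Alternatives were pseudocounts, filters, scalings, fits without trend or with sample weights, length and GC corrections, the replicate number as a block, and each library left out. The labels number LD-low and LD-high libraries alike without saying that a number marks a shared pool.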

Additional observations from a re-analysis of the deposited data

How the results depend on the processing

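The counts of Rab genes that rose and fell were 4 and 1 under pseudocounts of 0.5 and 5, no filter, TMM factors, equal totals and edgeR. Without a mean-variance trend 0 rose, 0 fell, 0 machinery genes and 15 genes in all were called. Quantile normalization called 252 genes. DESeq2 called 729 genes, 9 Rabs as higher and 6 machinery genes. The length correction gave 617, 11 and 6, and the GC correction 601, 9 and 6. With the replicate number as a block the counts were 1090 genes, 12 Rabs higher, 1 lower and 8 machinery genes, and with the block and the length correction 1349, 16, 1 and 12. Same-numbered libraries' deviations from their group means correlated at 0.16, 0.13 and 0.06, and differently numbered ones at -0.13 to -0.02. Every library correlated best with its own number, which is a hint of pairing from the data and not from the design. The numbers were not taken to pair the samples because the labels name no pairing. With 1 library left out, 43 to 407 genes, 0 to 5 Rabs as higher, 0 to 1 as lower and 0 to 3 machinery genes were called. The Rab median of 0.16 was 0.17 with a filter of 50, 0.12 with equal totals, 0.12 with quantile normalization, 0.19 with the length correction with or without the block, 0.20 with the GC correction, and 0.14 to 0.17 with 1 library left out. The median over all tested genes moved as well, from -0.01 to -0.05 with equal totals and to 0.04 with the length or the GC correction. The Rab median minus that of all genes was 0.16 in the report's fit and 0.16 with equal totals. That difference was 0.15 with the length correction, 0.16 with the GC correction, 0.11 with quantile normalization and 0.14 to 0.17 with 1 library left out. The cause of these shifts was not tested.

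Signs turned for members near 0, none of them called. Rab20, at -0.00178 in the report's fit, was 0.00107 with quantile normalization, 0.000637 with DESeq2, 0.0573 with the length correction, 0.0549 with the GC correction, 0.0573 with the block and length correction and -0.0404 to 0.0583 with 1 library left out. Rab22a, at 0.092 in the report's fit, was -0.00303 to 0.167 with 1 library left out. Rab23, at -0.0522 in the report's fit, was 0.0385 with quantile normalization and -0.186 to 0.0835 with 1 library left out. Rab33b, at -0.0405 in the report's fit, was 0.000593 with the length correction, 0.000593 with the block and length correction and -0.124 to 0.0209 with 1 library left out. Rab35, at 0.0372 in the report's fit, was -0.00545 with equal totals. Rab42, at 0.0218 in the report's fit, was -0.0195 with equal totals and -0.0553 to 0.105 with 1 library left out. Rab4b, at 0.0591 in the report's fit, was -0.0301 to 0.12 with 1 library left out. Rab5c, at -0.00222 in the report's fit, was 0.0407 with quantile normalization, 0.064 with sample weights, 0.00837 with edgeR, 0.0146 with DESeq2, 0.046 with the length correction, 0.0538 with the GC correction, 0.046 with the block and length correction and -0.227 to 0.238 with 1 library left out. Rab9, at 0.0355 in the report's fit, was -0.0071 with equal totals and -0.0372 to 0.0994 with 1 library left out. Depth limits the 11 members under the filter, where 3 reads are worth 2.11 to 5.01 normalized counts.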
